A study of Mus with 4 samples.

Results

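Immediate early genes and heat shock genes were followed in DX5-negative natural killer (NK) cells of the mouse liver, a population regarded as tissue-resident. The set was a list of 36 named genes, 27 immediate early and 9 heat shock. Each gene was read from the array row that names only that gene and has the highest mean over the 4 arrays. Such a row was found for 33 of the 36 members, out of 30142 genes that have one. Junb, Hspa1b and Dnaja1 had only rows shared with another gene, and Ier3 had a mean of 3.59, below the level of 4.217 (the median of all rows) required for testing. This left 32 members, 25 immediate early and 7 heat shock, among 16245 genes tested.

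Cells were sorted from the livers of female C57BL/6 mice aged 6 to 8 weeks, either wild-type (WT) or carrying dnTGFbRII, a dominant-negative TGF-beta receptor II transgene. RNA of each genotype was hybridized to 2 Affymetrix arrays, numbered 1 and 2 in the sample titles, to ask how liver-resident NK cells change in an inflamed environment. The labels do not name the transgene's promoter; the published line of this name uses a Cd4 promoter made for T cells, so altered signalling in the NK cells themselves is not given by the labels. Nothing in the labels says what the number marks or that arrays came from separate mice or sorts, so each p-value reflects array-to-array spread alone, which may be technical. Genotype and number were fitted separately, so in each fit this spread also holds any difference by the other factor.

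Immediate early genes are transcribed within minutes of receptor signalling or stress, from promoters already bound by factors such as SRF and CREB, and need no new protein synthesis. They encode AP-1, EGR, NR4A and KLF transcription factors, together with phosphatases and RNA-decay factors that shut the response off. Heat shock genes are switched on by HSF1 when proteins misfold and encode chaperones that refold them. In NK cells and T cells the early genes mark recent receptor engagement, and both groups are also known to respond to tissue digestion and sorting.

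The deposited log2 values had array medians between 4.20 and 4.26. They reach 19.89, and 783 of 72688 rows lie above 16, the ceiling of a 16-bit scanner, so a log2 unit is not certain to equal a doubling of RNA and no fold is given. Tgfbr2 measured 10.92 and 11.07 in WT and 10.92 and 11.06 in dnTGFbRII; whether its probes read the transgene is not known. Both spike-in classes differed by number. The 4 hybridization controls averaged 11.29 and 11.54 on WT replicates 1 and 2 and 11.31 and 11.70 on dnTGFbRII replicates 1 and 2, a difference of -0.32 for number 1 minus number 2. The 4 labelling controls averaged 5.97 and 6.16 in WT and 5.71 and 6.30 in dnTGFbRII, a difference of -0.39. Each of the 8 spike rows averaged lower on the number 1 arrays. Other control rows did not all move that way: number 1 minus number 2 was 0.18 for the median of negative control rows and -0.13 for that of background rows. Negative control rows had medians of 6.08 and 5.89 in WT and 5.99 and 5.83 in dnTGFbRII. Their 95th percentiles were 11.69 and 11.47 in WT and 11.74 and 11.56 in dnTGFbRII. A member below these levels cannot be called detected from its value alone. Values below are given in this array order, with replicate 1 first in each genotype.

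**Figure D1:**
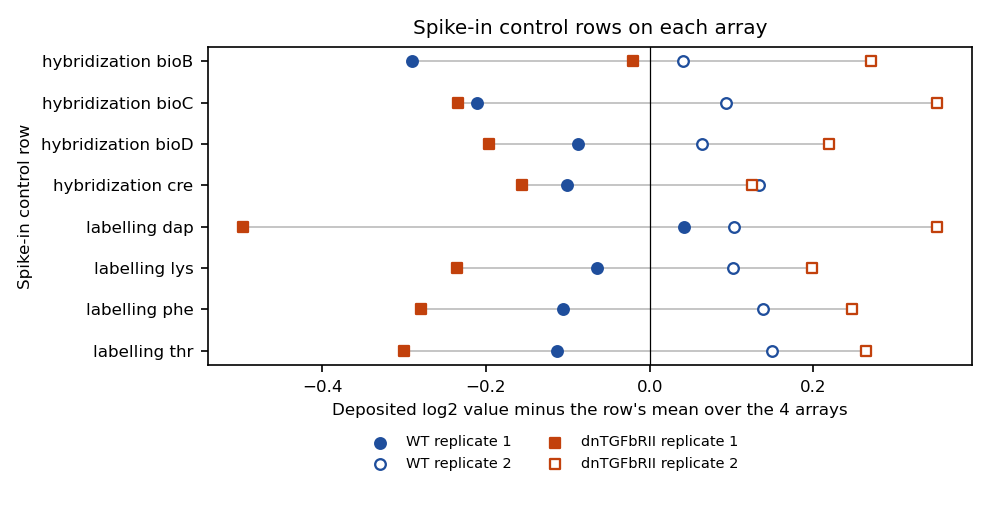
Spike-in control rows (vertical axis) on each array, as the deposited log2 value minus the row's mean over the 4 arrays (horizontal axis). Filled symbols are replicate 1 and open symbols replicate 2, circles WT and squares dnTGFbRII. The means of the number 1 arrays lie 0.26 to 0.45 below those of number 2.

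No immediate early or heat shock gene passed the test between genotypes. The largest differences, dnTGFbRII minus WT, were -0.63 for Dusp2, a phosphatase that inactivates MAP kinases, and -0.51 for Jun, the core AP-1 subunit. Single arrays moved both values: Dusp2 was -0.24 without dnTGFbRII replicate 1 and -1.01 without dnTGFbRII replicate 2. Jun was -0.17 without WT replicate 2 or dnTGFbRII replicate 1 and -0.84 without WT replicate 1 or dnTGFbRII replicate 2. A fit without 1 array is unbalanced by number, so its genotype difference also carries part of the number difference. At number 1 and number 2 taken alone, Jun differed by -0.50 and -0.51 by genotype, and Dusp2 by -0.90 and -0.36. By sign, 14 of 32 members were positive and 18 negative, with a median of -0.04 for the immediate early members, -0.03 for the heat shock members and -0.01 for all genes tested. Between the arrays numbered 1 and 2 the same genes lay further apart. Their median absolute difference was 0.36 by number against 0.15 by genotype, beside 0.18 and 0.10 over all genes tested. The members with a row averaged 12.03 and 11.87 in WT and 11.75 and 12.03 in dnTGFbRII, against 7.75 to 7.79 over all genes tested. Sizes were not compared among genes of like level. Early genes did not move one way with the number: Klf4 and Nr4a2 were higher on the number 1 arrays, and Rhob, Jund, Jun and Ier2 lower.

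**Figure D2:**
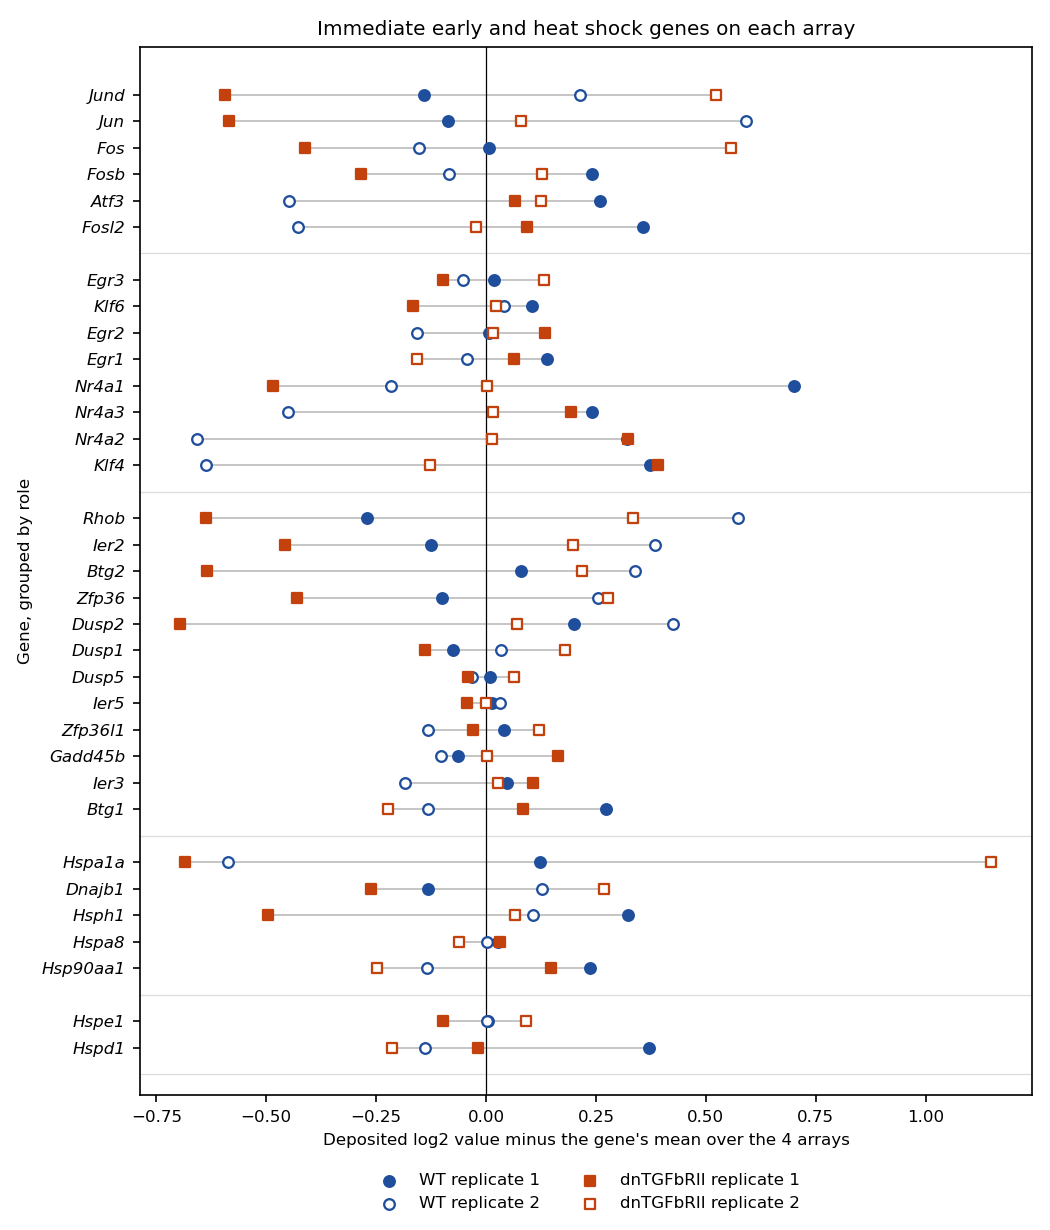
The 33 members with a row (vertical axis, grouped as AP-1 and Atf3, other transcription factors, feedback genes, cytosolic heat shock proteins and mitochondrial chaperonins), as the deposited log2 value minus the gene's mean over the 4 arrays (horizontal axis). Filled symbols are replicate 1 and open symbols replicate 2, circles WT and squares dnTGFbRII. The filled square, dnTGFbRII replicate 1, is the lowest point for 19 of the 33 genes.

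In the genotype comparison (limma, adjusted by Benjamini-Hochberg over all genes tested), 0 of 32 members reached an adjusted p of 0.05, as did 0% of all genes, and 0 members reached an unadjusted p under 0.05, against 3.23% of all genes. The members' adjusted p was 0.9998 throughout, and the lowest of any gene was 0.725. The genotypes did not overlap for 2 members higher in dnTGFbRII (Egr2 and Gadd45b; 12.6% of all genes) and for 4 lower (Klf6, Ier5, Dusp2 and Hsph1; 14.5% of all genes). An absolute difference above 0.5 was seen for 2 members, Jun and Dusp2, against 3.47% of all genes. The smallest p an exact permutation test of 2 arrays against 2 allows is 0.333. Leaving out an array moved the count at an unadjusted p under 0.05 to 5 without dnTGFbRII replicate 2 (Btg2, Dusp2, Hsph1, Jun and Jund, 5.91% of all genes), 2 without dnTGFbRII replicate 1 (Fos and Hspa1a, 3.5%), 1 without WT replicate 1 (Nr4a2, 1.8%) and 1 without WT replicate 2 (Nr4a1, 3.01%).

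In the number comparison, 10 of 32 members (31.2%) reached an unadjusted p under 0.05 in limma, against 23.6% of all genes. Of these, 4 were higher on number 1 (Klf4, Nr4a2, Hsp90aa1 and Btg1; 12.2% of all genes) and 6 lower (Rhob, Ier2, Zfp36, Jund, Dnajb1 and Jun; 11.4% of all genes). No member and 0% of all genes reached an adjusted p of 0.05; Rhob alone passed 0.1, against 5.42% of all genes. Arrays of different number did not overlap for 9 members higher on number 1, against 29.4% of all genes, and for 8 lower, against 26.8%. An absolute difference above 0.5 was seen for 9 members, against 10.9% of all genes, which were not matched to the members for level. With the level required for testing raised to 6.583, the same 10 members stood at an unadjusted p under 0.05 among 29 tested, beside 34.1% of all genes, so members were called about as often as other genes of that level.

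**Figure D3:**
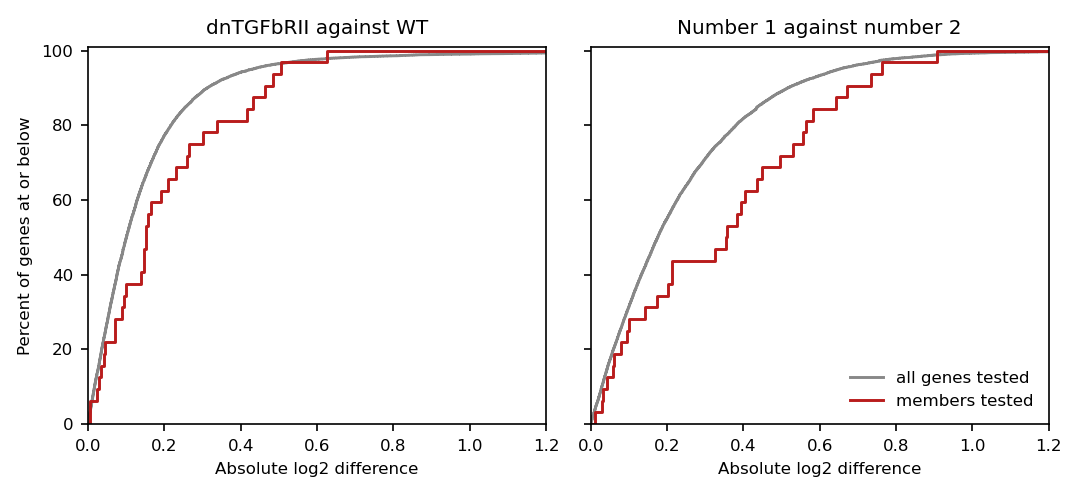
Percent of genes (vertical axis) with an absolute log2 difference at or below the value on the horizontal axis, for the 32 members tested (red) and all 16245 genes tested (grey), by genotype (left) and by replicate number (right). The medians are 0.15 against 0.10 on the left and 0.36 against 0.18 on the right. All genes were not matched to the members for level.

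The AP-1 factors bind DNA as dimers of a FOS and a JUN protein. Jun measured 14.02 and 14.70 in WT and 13.52 and 14.19 in dnTGFbRII. Within each genotype the number 1 array was the lower, with a difference of -0.68 in WT and -0.66 in dnTGFbRII, and at each number the dnTGFbRII array was the lower. The difference by genotype was -0.51 ± 0.34 (SE; unadjusted p = 0.199, limma) and by number -0.67 ± 0.25 (unadjusted p = 0.0441, adjusted p = 0.202). Jund, an AP-1 subunit usually present in resting cells, measured 6.68 and 7.04 in WT and 6.23 and 7.35 in dnTGFbRII. Both number 1 arrays lay below both number 2 arrays, with a difference of -0.74 ± 0.20 by number (adjusted p = 0.132, limma) and -0.07 ± 0.41 by genotype.

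Fos, the JUN partner most often read as a sign of stimulation, measured 12.42 and 12.26 in WT and 12.00 and 12.97 in dnTGFbRII. The WT arrays lay between the dnTGFbRII arrays, so the genotype difference of 0.15 ± 0.35 was under its own error, and the number difference was -0.41 ± 0.28. Fosb, a second FOS protein, differed by -0.16 ± 0.21 by genotype and -0.04 ± 0.20 by number. Fosl2, which encodes FRA-2, differed by 0.07 ± 0.29 by genotype and 0.45 ± 0.18 by number (adjusted p = 0.226, limma), the opposite sign to Jun and Jund. Atf3, a stress-induced factor that pairs with JUN proteins, differed by 0.19 ± 0.26 and 0.32 ± 0.21. The one row naming Junb also names Prdx2 and measured 10.65, 10.49, 10.40 and 10.55, a narrow range that cannot be assigned to Junb.

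The NR4A genes encode orphan nuclear receptors induced by antigen-receptor signalling. Nr4a1 (NUR77) measured 15.45 and 14.53 in WT and 14.26 and 14.75 in dnTGFbRII. WT replicate 1 stood above the other 3 arrays, and the differences were -0.48 ± 0.36 by genotype and 0.21 ± 0.40 by number. Nr4a2 (NURR1) measured 15.74 and 14.77 in WT and 15.75 and 15.44 in dnTGFbRII. Both number 1 arrays were above both number 2 arrays, by 0.64 ± 0.23 (unadjusted p = 0.0426, adjusted p = 0.198, limma), while the genotype difference was 0.34 ± 0.36. Nr4a3 (NOR1) differed by 0.44 ± 0.18 by number and 0.21 ± 0.27 by genotype, with no overlap between the numbers.

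KLF4, a zinc-finger factor tied to quiescence in lymphocytes, had the largest positive number difference of any member tested. Klf4 measured 8.78 and 7.77 in WT and 8.80 and 8.28 in dnTGFbRII. The 2 number 1 arrays nearly coincided and lay above both number 2 arrays, with a difference of 0.76 ± 0.19 (adjusted p = 0.116, limma), against 0.26 ± 0.39 by genotype. Klf6, a related factor, measured 16.18 and 16.11 in WT and 15.90 and 16.09 in dnTGFbRII. The genotypes did not overlap, although the number 2 arrays differed by only -0.019, and the difference was -0.15 ± 0.14.

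The EGR factors act downstream of ERK signalling. Egr1 measured 6.49 and 6.31 in WT and 6.42 and 6.20 in dnTGFbRII, all within 0.30. It was higher on both number 1 arrays by 0.20 ± 0.10 (adjusted p = 0.302, limma) and differed by -0.09 ± 0.15 by genotype. Egr2 measured 7.42 and 7.25 in WT and 7.55 and 7.43 in dnTGFbRII, with both dnTGFbRII arrays above both WT arrays by a difference of 0.15 ± 0.14 that was close to its error. Egr3 differed by 0.03 ± 0.14 by genotype and -0.08 ± 0.11 by number. In the rows used, these 3 genes spanned at most 0.30 over the 4 arrays, against a median range of 0.64 for members tested and 0.36 for all genes tested. The highest background control row measured 5.85 on WT replicate 2 and 6.21 on dnTGFbRII replicate 2. It lay above Egr3 on both of these arrays and above Egr1 on dnTGFbRII replicate 2. For Egr1 and Egr3 a narrow range so near background need not mean steady expression. Further rows naming Egr3 alone, with no mapped chromosome, spread more widely. One measured 5.02 and 5.10 in WT and 5.13 and 5.57 in dnTGFbRII, another 5.42 and 5.11 in WT and 5.30 and 5.71 in dnTGFbRII. Their genotype differences were 0.28 and 0.25, and the mean of all Egr3 rows gave 0.19.

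Among the genes that restrain the response, the DUSP phosphatases remove the activating phosphates of MAP kinases. Dusp2, which acts in the nucleus, measured 11.56 and 11.78 in WT and 10.66 and 11.43 in dnTGFbRII. Both dnTGFbRII arrays lay below both WT arrays, replicate 1 by most, and the difference of -0.63 ± 0.29 (unadjusted p = 0.0890, limma) was the largest by genotype among the members tested. By number it was -0.50 ± 0.32. Dusp1, induced by stress, measured 18.05 and 18.16 in WT and 17.98 and 18.30 in dnTGFbRII. Its differences were 0.04 ± 0.16 by genotype and -0.21 ± 0.10 by number, and those of Dusp5, which binds ERK in the nucleus, 0.02 ± 0.12 (-0.0030 with arrays centred on their medians) and -0.03 ± 0.10.

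Zfp36 encodes tristetraprolin, which marks AU-rich cytokine mRNAs for decay. Zfp36 measured 13.70 and 14.06 in WT and 13.37 and 14.08 in dnTGFbRII. The 2 number 2 arrays nearly coincided above both number 1 arrays, giving -0.53 ± 0.14 by number (adjusted p = 0.126, limma) and -0.15 ± 0.29 by genotype. Its relative Zfp36l1 differed by 0.01 ± 0.12 by number, a sign that turned with centred (-0.019) or repeatedly quantile-normalized (-0.089) arrays, and 0.09 ± 0.14 by genotype. The antiproliferative genes Btg1 and Btg2 lay on opposite sides of 0 by number. Btg1 measured 15.45 and 15.04 in WT and 15.26 and 14.95 in dnTGFbRII, a number difference of 0.36 ± 0.11 (adjusted p = 0.159, limma). Btg2 measured 11.36 and 11.62 in WT and 10.65 and 11.50 in dnTGFbRII, with differences of -0.56 ± 0.25 by number and -0.42 ± 0.32 by genotype, and dnTGFbRII replicate 1 stood below the other 3 arrays.

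Rhob, a small GTPase of endosomes and an early gene of growth-factor and stress responses, had the largest number difference of all members tested. It measured 11.35 and 12.19 in WT and 10.98 and 11.96 in dnTGFbRII. The number 1 arrays were lower by a similar amount in WT (-0.84) and in dnTGFbRII (-0.97), and the difference of -0.91 ± 0.17 had an unadjusted p of 0.00322 and an adjusted p of 0.0956 in limma. By genotype it was -0.30 ± 0.44. Ier2, a nuclear protein of early responses, measured 11.92 and 12.43 in WT and 11.59 and 12.25 in dnTGFbRII. Its number difference was -0.58 ± 0.15 (adjusted p = 0.126, limma) and its genotype difference -0.26 ± 0.30.

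Gadd45b, a stress sensor that binds upstream MAP3 kinases, measured 16.41 and 16.38 in WT and 16.64 and 16.48 in dnTGFbRII. Both dnTGFbRII arrays were the higher, by 0.17 ± 0.13, and the number difference was 0.10 ± 0.12. Ier5, which has been linked to HSF1 activity, had the narrowest range of any member, 0.07, with differences of -0.04 ± 0.12 by genotype and -0.03 ± 0.09 by number. Ier3, below the level for testing, lay between 3.41 and 3.70. The table has no detection call, so such a value cannot be told from background.

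**Figure D4:**
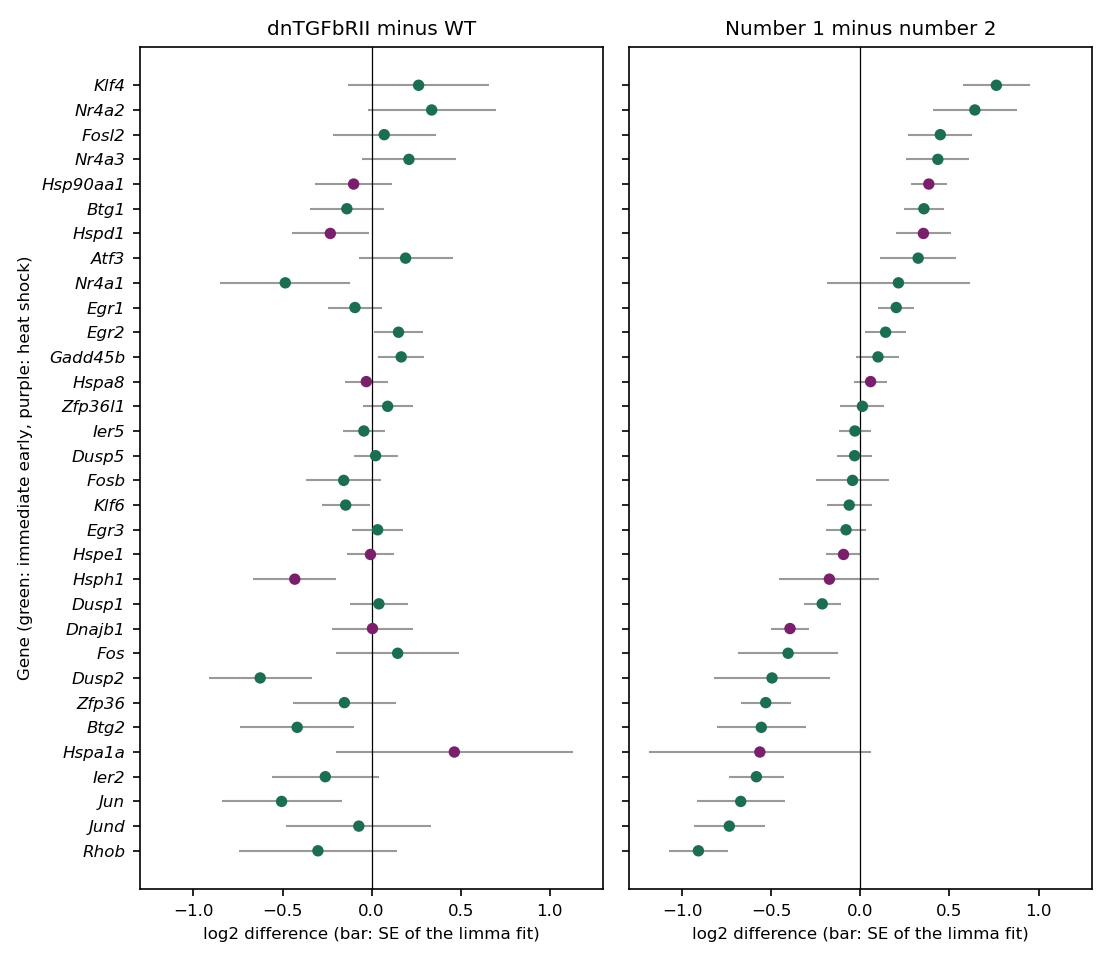
Log2 difference (horizontal axis) of the 32 members tested, dnTGFbRII minus WT (left) and number 1 minus number 2 (right), with its standard error from limma as a bar, immediate early genes in green and heat shock genes in purple. Genes are ordered by the number difference, from 0.76 for Klf4 at the top to -0.91 for Rhob at the bottom.

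Hspa1a encodes the stress-inducible HSP70, and its row spanned 1.84 over the 4 arrays, the widest of any member. It measured 6.31 and 5.60 in WT and 5.50 and 7.34 in dnTGFbRII. The 2 dnTGFbRII arrays enclosed both WT arrays, so differences of 0.46 ± 0.66 by genotype and -0.56 ± 0.62 by number were under their errors. The highest background control row measured 5.33 and 5.85 in WT and 5.58 and 6.21 in dnTGFbRII. It lay above Hspa1a on WT replicate 2 and dnTGFbRII replicate 1, where Hspa1a cannot be told from background. On WT replicate 1 and dnTGFbRII replicate 2 Hspa1a lay above that row. There it was still below the 95th percentile of negative control rows (11.69 and 11.56). The row shared by Hspa1a and its close copy Hspa1b measured 5.59 and 5.30 in WT and 5.10 and 6.42 in dnTGFbRII, with the same order of arrays. The copies can share probes, so Hspa1a and Hspa1b cannot be told apart with certainty.

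Dnajb1, the HSP40 partner that delivers clients to HSP70, measured 7.83 and 8.09 in WT and 7.70 and 8.23 in dnTGFbRII. Both number 1 arrays were the lower, by -0.39 ± 0.11 (adjusted p = 0.136, limma), and the genotype difference was 0.0048 ± 0.23, turning to -0.021 when arrays were centred on their medians. Hsp90aa1, the inducible cytosolic HSP90, measured 15.63 and 15.26 in WT and 15.55 and 15.15 in dnTGFbRII. It was the higher on number 1, by 0.38 ± 0.10 (adjusted p = 0.127, limma), with -0.10 ± 0.22 by genotype. A pair of further Hsp90aa1 rows, each shared with a predicted gene (Gm5844 or Gm12346), had number differences of 0.61 and 0.74. Dnajb1 and Hsp90aa1, both HSF1 targets, thus lay on opposite sides of 0 by number.

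Hsph1, the HSP110 nucleotide exchange factor of HSP70, measured 14.41 and 14.19 in WT and 13.58 and 14.15 in dnTGFbRII. Both dnTGFbRII arrays lay below both WT arrays, although the number 2 arrays differed by only -0.041, and the difference was -0.43 ± 0.23 (unadjusted p = 0.129, limma). Its number difference was -0.17 ± 0.28. The row shared by Dnaja1, another HSP40, and Mir207 measured 13.72 and 13.12 in WT and 13.22 and 13.11 in dnTGFbRII, with WT replicate 1 above the other 3.

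Hspa8, the constitutive HSC70, is the least certain of these identities. The row used measured 19.71 and 19.69 in WT and 19.72 and 19.62 in dnTGFbRII, among the highest values of the table. Its identifier carries a chromosome other than that of Hspa8, as do the other 3 rows naming Hspa8 alone, whereas 99.66% of one-gene rows carry the chromosome of their gene. The row on the Hspa8 chromosome also names 3 small nucleolar RNA genes and measured 14.72 and 14.86 in WT and 14.71 and 14.80 in dnTGFbRII. The number difference was 0.06 ± 0.09 in the row used and -0.11 in that row, so its sign depends on the row; by genotype the values were -0.03 and -0.03.

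**Figure D5:**
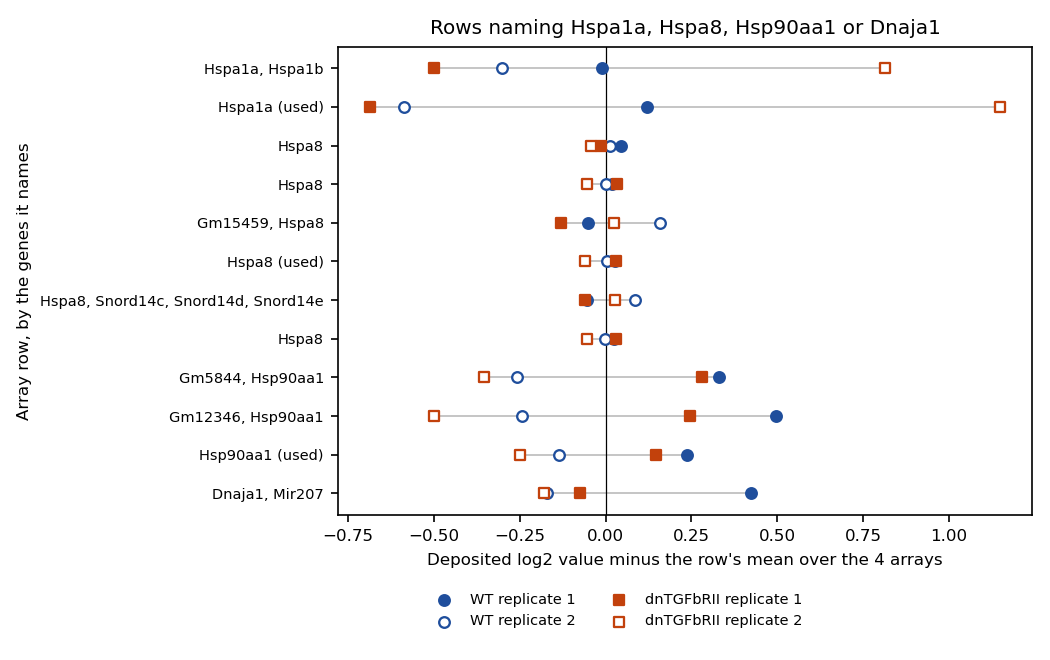
Array rows naming Hspa1a, Hspa8, Hsp90aa1 or Dnaja1 (vertical axis, by the genes each names), as the deposited log2 value minus the row's mean over the 4 arrays (horizontal axis). Filled symbols are replicate 1 and open symbols replicate 2, circles WT and squares dnTGFbRII. Both Hspa1a rows have dnTGFbRII replicate 2 highest and replicate 1 lowest, and the Hsp90aa1 rows have both number 1 arrays above both number 2 arrays.

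The mitochondrial chaperonin is built from HSP60 and HSP10, encoded by Hspd1 and Hspe1, which share a promoter. Hspd1 measured 9.05 and 8.54 in WT and 8.66 and 8.46 in dnTGFbRII. It was higher on both number 1 arrays by 0.35 ± 0.16 (adjusted p = 0.260, limma), with -0.23 ± 0.22 by genotype. Hspe1 differed by -0.09 ± 0.10 by number and -0.01 ± 0.13 by genotype.

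Across the members, 21 of 32 had the same sign of the number difference in both genotypes, beside 71.7% of all genes tested, and 16 of 32 the same sign of the genotype difference at both numbers, beside 57.1%. dnTGFbRII replicate 1 held the lowest value of 19 of the 33 members with a row, Jun, Fos, Dusp2 and Hspa1a among them, beside 28.0% of all genes tested. WT replicate 1 held the lowest value of 0 members, beside 21.1% of all genes, and the highest of 11, Nr4a1 among them, beside 26.4% of all genes. dnTGFbRII replicate 1 was also the lowest array for each spike row except bioB. The part of spike levels, and of what the number marks, in these differences was not tested.

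Genes around these pathways were read in the same fits. At an unadjusted p under 0.05 in limma, 3.23% of all genes tested were called by genotype. By number, 12.2% of all genes were higher on number 1 and 11.4% lower. These shares stand beside each count that follows, the marker lists included. Of 20 kinases and transcription factors upstream of early genes, 0 reached an unadjusted p under 0.05 by genotype (median -0.0024), and 5 were higher and 5 lower on number 1 (median -0.07). Srf, the factor that drives many early promoters, differed by -0.55 ± 0.10, Creb1, a cAMP-responsive factor, by -0.50 ± 0.10, and Atf2, a JNK and p38 target, by 0.67 ± 0.09, each with an adjusted p under 0.1 but none under 0.05. By genotype the largest statistics were those of the kinases Mapk8 (-0.21 ± 0.13) and Mapkapk2 (0.22 ± 0.16) and of the SRF cofactor Mrtfb (0.15 ± 0.12). Of 36 other early response genes, 1 was higher in dnTGFbRII at that p and 0 lower (median 0.05), and 3 were higher and 1 lower on number 1 (median -0.04). By genotype these were led by Ppp1r15a, the stress-induced eIF2alpha phosphatase subunit, at 0.45 ± 0.14, with the activation marker Cd69 at -0.68 ± 0.31 and the antiproliferative gene Tob2 at 0.36 ± 0.17. By number, Tiparp, an aryl hydrocarbon receptor target, differed by 0.82 ± 0.13, Btg3 by 0.65 ± 0.10 and Dusp6, an ERK phosphatase, by -0.61 ± 0.11.

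Of 10 heat shock factors and regulators, 1 was higher in dnTGFbRII at an unadjusted p under 0.05 (median 0.13), the HSP70 co-chaperone Bag3 at 0.43 ± 0.16 (adjusted p = 0.9998, limma). Bag3 measured 4.34 and 4.19 in WT and 4.55 and 4.85 in dnTGFbRII, near the level required for testing. Hspbp1 and Bag4, co-chaperones of HSP70, differed by 0.28 ± 0.15 and 0.20 ± 0.13. By number 1 was higher and 2 lower (median -0.09): Bag1 by 0.37 ± 0.14, Bag6 by -0.34 ± 0.10 and Hsf4 by -0.37 ± 0.12. Of 25 other cytosolic chaperones, 1 was higher in dnTGFbRII (Hspa2, 0.36 ± 0.12; list median -0.09), beside Ahsa2 and Chordc1, HSP90 cofactors, at -0.42 ± 0.17 and -0.45 ± 0.20. By number 7 of the 25 were higher and 1 lower (median 0.06), beside 12.2% and 11.4% of all genes. The largest statistics were those of Ppid (0.64 ± 0.09), Dnajc2 (0.60 ± 0.09) and Hspa4 (0.45 ± 0.10).

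The CCT chaperonin folds actin and tubulin, and of its 7 tested subunits 0 reached an unadjusted p under 0.05 by genotype (median 0.02), with Cct7 at -0.09 ± 0.12, Cct3 at 0.06 ± 0.13 and Tcp1 at 0.05 ± 0.17. On number 1, 2 were higher and 0 lower (median 0.23), beside 12.2% and 11.4% of all genes. Cct8 was higher by 0.80 ± 0.12 and Cct2 by 0.52 ± 0.09, and Tcp1 differed by 0.24 ± 0.10. Of 9 other mitochondrial chaperones and proteases, 0 reached that p by genotype (median -0.01), with Lonp1 at -0.08 ± 0.16, Clpb at 0.08 ± 0.15 and Clpp at 0.16 ± 0.33. By number 2 were higher and 3 lower (median 0.17), among them Hspa9, the mitochondrial HSP70, at 0.92 ± 0.11, Clpp at -0.66 ± 0.12 and Trap1 at -0.31 ± 0.09. No gene of these lists passed an adjusted p of 0.05 in limma in either comparison.

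Markers of the sorted cells and of other liver cells were read beside the members, as mean levels over each list's genes with a row, tested or not. NK cell markers (19 of 19 with a row) averaged 14.22 and 14.40 in WT and 14.29 and 14.43 in dnTGFbRII. At an unadjusted p under 0.05, 2 were higher in dnTGFbRII and 1 lower, beside 3.23% of all genes called either way. The higher ones were Eomes, a transcription factor of circulating NK cells, at 6.78 and 6.81 in WT and 10.30 and 8.87 in dnTGFbRII, and Itga2, the DX5 antigen itself, at 8.32 and 8.56 in WT and 9.06 and 8.83 in dnTGFbRII. The lower one was Itgae, at 5.01 and 4.66 in WT and 4.28 and 4.46 in dnTGFbRII. Of the 19 NK cell markers, 5 had a positive and 14 a negative genotype difference, with a median of -0.09. Dendritic cell markers (12 of 13) averaged 9.65 and 8.06 in WT and 7.24 and 7.17 in dnTGFbRII, a median genotype difference of -2.27 with 6 of 11 tested lower at that p, and a median number difference of 0.94. T cell markers (14 of 15) averaged 7.59 and 7.37 in WT and 8.24 and 7.96 in dnTGFbRII, with 6 of 11 tested higher in dnTGFbRII and 1 lower at that p. Genotype differences of the T cell markers tested ran from -0.45 to 2.78, with a median of 0.57. Cd3d, which had the largest statistic of them, measured 11.05 and 10.65 in WT and 13.19 and 12.76 in dnTGFbRII. Macrophage markers (12 of 12) averaged 5.81 and 5.28 in WT and 5.57 and 5.76 in dnTGFbRII, and neutrophil (10 of 10), B cell (7 of 8), hepatocyte (7 of 8), endothelial and stellate (10 of 10) and erythroid (2 of 6) lists averaged 5.81 or below on every array. Single genes lay above those averages, among them Trf of the hepatocyte list at 13.45 and 12.96 in WT and 12.99 and 13.08 in dnTGFbRII, and Pecam1 of the endothelial list at 9.49 and 9.72 in WT and 9.55 and 10.16 in dnTGFbRII. Others varied more between arrays. Lyz2 of the macrophage list measured 10.23 and 8.23 in WT and 9.25 and 11.02 in dnTGFbRII. By genotype, 6 of the 8 macrophage markers tested were positive and 2 negative. Clec9a of the dendritic cell list measured 9.83 and 6.71 in WT and 4.77 and 4.82 in dnTGFbRII, where all 11 tested were lower. The part of other cells in the members' values was not tested, and in bulk RNA fewer cells of a type and less RNA per cell cannot be told apart. Without a detection call no marker can be placed at 0.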

How the data were processed

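RNA from sorted DX5- NK cells of 2 genotypes was measured on 4 arrays. The authors deposited log2 expression values made by RMA in the Affymetrix Expression Console, per the submitters' processing notes; tool versions, the RMA variant, the annotation and the build were not given in the sources used here. No coordinates or sequences are therefore printed. Arrays shared at most 0.044% of identical values. Of 72688 rows, 30604 named 1 gene, 2146 several and 39938 were not listed in the platform annotation; 22818 one-gene rows were matched to a GRCm38.p6 gene table by Entrez identifier, used for names only. Rows naming several genes gave no gene value.

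The deposited log2 values were fitted without further normalization in limma 3.58.1 (R 4.3.3; lmFit, eBayes with a constant prior, 2-sided, 2 residual degrees of freedom) by genotype and separately by replicate number, and p-values were adjusted over the 16245 genes with a mean above 4.217. Differences are dnTGFbRII minus WT or number 1 minus number 2, and ± is the standard error of the fit. The scripts were tested on simulated data. Unadjusted p-values, medians and counts are descriptions of these arrays, whose number limits every value.

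Members and lists were chosen with earlier results of these data known. Every member with a row is named. Array values are given for the 10 members with the largest statistics in each comparison and for Fos, Jun, Egr1, Nr4a1, Dusp1, Hspa1a, Hspa8 and Dnajb1, and up to 3 genes are named from each neighbouring list and comparison. Alternatives were another prior, other filters, repeated quantile normalization, median centring, averaged rows, both factors in 1 fit, a threshold of 0.1 and each array left out.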

Additional observations from a re-analysis of the deposited data

Results flagged for a closer look

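For 4 of 32 members the number 1 array stood above the number 2 array by at least 0.2 in WT and below it by at least 0.2 in dnTGFbRII, as it did for 481 of 16245 genes tested (2.96%, either way round). Hspa1a differed by 0.71 in WT and -1.84 in dnTGFbRII, with its lower value in each genotype below the highest background control row of that array. Nr4a1 differed by 0.91 in WT and -0.49 in dnTGFbRII. Hsph1 differed by 0.22 and -0.56, and Fosb by 0.32 and -0.41. Each value rests on 1 pair of arrays, and the difference between the genotypes was not tested.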

How the results depend on the processing

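No member passed an adjusted p of 0.05 under any alternative run. Genes past it by genotype, 0 as reported, numbered 0 to 6 over the fits with 1 array left out; by number, 0 as reported, they were 448 under the stricter filter (no member among them, though 7 members passed 0.1) and 881 at a threshold of 0.1. Members at an unadjusted p under 0.05 by genotype, 0 as reported, numbered 1 to 5 with an array left out and 3 with the replicate block (Dusp2, Jun and Rhob, 9.03% of all genes); same-numbered arrays deviated together (r = 0.5105 over 16245 genes), but with 2 pairs they share only a number. By number the count was 7 to 10 with an array left out (11.3% to 23.1% of all genes), 5 to 7 of them among the 10 reported, 9 after repeated quantile normalization (24.8%) and 13 with genotype in the fit (26.7%), the 10 reported included. With an array left out, where the lone array is assumed to vary like the others, the genotype medians ran from -0.14 to 0.074 (immediate early) and -0.13 to -0.0059 (heat shock), and the number medians from -0.14 to 0.015 and -0.15 to 0.055.

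Signs also turned for single members of the 32 tested. With centred arrays Dnajb1 and Dusp5 were -0.021 and -0.0030 by genotype and Zfp36l1 -0.019 by number, Zfp36l1 was -0.089 after quantile normalization, and Hspa8 by number -0.11 in the row on its own chromosome, chosen after seeing the data. With an array left out, genotype differences that changed sign ran from -0.34 to 0.064 (Btg1), -0.84 to 0.0087 (Btg2), -0.26 to 0.27 (Dnajb1), -0.12 to 0.20 (Dusp1), -0.20 to 0.017 (Egr1), -0.34 to 0.63 (Fos), -0.30 to 0.098 (Hsp90aa1), -0.45 to 1.38 (Hspa1a), -0.076 to 0.016 (Hspa8), -0.49 to 0.024 (Hspd1), -0.59 to 0.069 (Ier2), -0.63 to 0.49 (Jund), -0.24 to 0.77 (Klf4), -0.15 to 0.83 (Nr4a2), -0.79 to 0.18 (Rhob), -0.51 to 0.20 (Zfp36), -0.16 to 0.54 (Atf3), -0.029 to 0.074 (Dusp5), -0.082 to 0.15 (Egr3), -0.36 to 0.049 (Fosb), -0.32 to 0.46 (Fosl2), -0.10 to 0.088 (Hspe1) and -0.14 to 0.56 (Nr4a3). Number differences ran from -0.014 to 0.21 (Gadd45b), -1.43 to 0.30 (Hspa1a), -0.58 to 0.24 (Hsph1), -0.20 to 0.074 (Klf6), -0.38 to 0.81 (Nr4a1), -0.079 to 0.015 (Dusp5), -0.17 to 0.012 (Egr3), -0.31 to 0.22 (Fosb) and -0.11 to 0.14 (Zfp36l1). A fit without 1 array is unbalanced, so its genotype difference also carries part of the number difference, and the reverse. At number 1 and number 2 taken alone, Rhob differed by -0.36 and -0.24 by genotype and Ier2 by -0.33 and -0.19. Of the 32 members tested, 16 had the same sign of the genotype difference at both numbers. The cause of the differences themselves was not tested.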
